A study of Mus musculus with 16 samples.

Results

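The 36 genes described here encode the route from glucose to pyruvate and lactate and the oxidation of pyruvate. They also cover the tricarboxylic acid (TCA) cycle and the branch that leads from it to itaconate. They were chosen by gene symbol, as a list of the pathway and by no threshold on measured values, and they stood for 37 of the 54532 genes in the deposited tables, since a second and much shorter entry also carries the symbol Aldoa. All 37 were among the 15257 genes that passed the filter on low counts. The scaled count minimum of that filter was reached in all 16 libraries by 34 of them. Ldhb reached it in all 8 bleomycin libraries and in 0 saline libraries, so that it could enter the test only through the group in which it was high. The second Aldoa entry reached it in 0 bleomycin and 6 saline libraries, and Acod1 in 8 bleomycin and 4 saline libraries.

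RNA was sequenced from cells washed out of the airways by bronchoalveolar lavage, a population that consists mostly of alveolar macrophages in a healthy mouse lung. The 4 groups were males given bleomycin, females given bleomycin, males given saline and females given saline, with 4 libraries each. Bleomycin, an antitumour drug that breaks DNA and is used in mice to model lung fibrosis, was given at 4 U/kg by the oropharyngeal route, and cells were collected 14 days after either treatment. The mice were 8 to 10 weeks old and the labels, which name no genetic modification, write the strain as C56BL/6J for the samples and as C57BL/6 in the design. The comparisons ask what bleomycin did to the level of each gene, and whether males and females differed. Counts assigned to genes totalled 18871879 to 24567609 in bleomycin libraries and 16385784 to 21393539 in saline libraries. Values of single libraries are listed in the order of their codes, which are C33, C65, C66 and C67 for bleomycin males, C49, C50, C68 and C69 for bleomycin females, C70 to C73 for saline males and C74 to C77 for saline females. The labels do not say whether a library came from 1 animal, so that p-values measure the spread between these libraries.

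Glycolysis splits glucose into pyruvate in the cytosol and yields a small amount of ATP quickly. Pyruvate is either reduced to lactate and exported or oxidised to acetyl-CoA by pyruvate dehydrogenase in mitochondria, where the TCA cycle completes the oxidation. In macrophages the balance of these routes changes with activation, hypoxia-inducible factors raise the transcription of many glycolytic genes, and the enzyme encoded by Acod1 makes itaconate from the cycle intermediate cis-aconitate. Resident alveolar macrophages live in a compartment that is poor in glucose and are known for relying on fatty acid oxidation.

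The cell mixture differed strongly between the treatments. The summed level of 10 monocyte-derived macrophage markers was 12850 to 28020 CPM (counts scaled to a common library size and corrected for composition) in bleomycin libraries and 433.6 to 620.1 CPM in saline libraries, and all 10 rose. All 10 T cell markers rose as well, with summed levels of 153.6 to 493.4 CPM in bleomycin and 1.26 to 3.66 CPM in saline libraries. Of 12 resident alveolar macrophage markers 9 fell and 1 rose, and their sums overlapped at 11840 to 24690 CPM in bleomycin and 18150 to 27060 CPM in saline libraries. Of 5 markers shared by macrophages 3 rose and 1 fell, with sums of 40980 to 59950 CPM in bleomycin and 19940 to 25320 CPM in saline libraries. Rises were also called for 6 of 6 B cell, 5 of 5 NK cell, 4 of 5 neutrophil, 7 of 8 epithelial and 5 of 5 red blood cell markers that were tested, and the remaining neutrophil and epithelial markers fell. Many markers of these lists had saline means far below the scaled minimum of the filter, 0.51 CPM. Examples are Cd3e at 0.11, Cd79b at 0.026, Gzmb at 0.011 and the monocyte marker Ly6c2 at 0.0061 CPM. Such markers entered the test only through bleomycin libraries and could only come out higher, so that their number of rises is no result. B cell sums were 53.7 to 350.6 CPM in bleomycin and 0.735 to 1.28 CPM in saline libraries, and NK cell sums 14.7 to 32.4 CPM in bleomycin and 0.517 to 1.89 CPM in saline libraries. Neutrophil sums were 113.6 to 193.9 CPM in bleomycin and 49.6 to 67.9 CPM in saline libraries, and epithelial sums overlapped at 95.4 to 172.9 CPM in bleomycin and 114.9 to 160.8 CPM in saline libraries. Epcam, the epithelial marker that fell, averaged 18.99 CPM in bleomycin and 119.6 CPM in saline libraries and made most of the saline sum. Single genes also made most of other sums. In bleomycin and saline libraries Spp1 averaged 13610 and 348.3 CPM in the monocyte-derived list. Chil3, which was not called, averaged 12970 and 15770 CPM in the resident list, and Lyz2 50670 and 19650 CPM in the shared list. Red blood cell sums overlapped as well at 67.3 to 6024 CPM in bleomycin and 7.24 to 441.1 CPM in saline libraries, and the highest value was that of C65, the next being 1184 CPM. The NK marker Ncr1 was at 0 in every saline library, and the neutrophil marker Elane was at 0 in every library. Of 6 proliferation genes 0 rose and 2 fell, with sums of 267.9 to 395.5 CPM in bleomycin and 346.9 to 433.0 CPM in saline libraries. The part of this change in cell mixture in the results that follow was not tested, and in a mixed sample fewer cells of a type and less RNA per cell cannot be told apart.

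Among the steps of the pathway, bleomycin raised the 1 glucose transporter gene, 8 entries of upper glycolysis (3 fell) and 4 of 5 genes of lower glycolysis (Gapdh was not called). Rises were also called for all 4 listed genes of lactate handling, 4 of 10 genes listed under the TCA cycle (1 fell) and Acod1. For pyruvate oxidation 0 of 3 genes were called. The 10 genes listed under the TCA cycle include Idh1 and Mdh1, which encode cytosolic enzymes and are both among the 4 rises. Averaged over the sexes, 22 of the 37 entries rose (59.5%) and 4 fell (10.8%), namely Pfkp, Pfkfb4, Idh2 and the second Aldoa entry, at a Benjamini-Hochberg adjusted p below 0.05 in the quasi-likelihood test of edgeR. The second Aldoa entry passed the filter through saline libraries alone, so that it had to be lower in bleomycin, and under a stricter filter that removed it 3 entries fell. Over all genes tested the same rule called 34.7% higher and 28.8% lower. The median log2 fold change of bleomycin over saline was 0.28 for these genes and 0.01 for all genes tested. Of the 22 rises, 9 were at least 2-fold. In 14 entries all 8 bleomycin libraries lay above all 8 saline libraries and in 2 they lay below, against 19.2% and 10.3% of all genes tested. Ldhb passed the filter through bleomycin libraries alone, so that it could only come out higher. It is counted in the 4 genes of lactate handling, the 22 rises, the 9 and the 14.

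The counts depended on the scaling for composition. With library totals alone the median log2 fold change of all genes shifted to -0.20, 34.7% of the genes called were higher in bleomycin instead of 54.6%, and the pathway counted 16 rises and 11 falls. Under that scaling glucose uptake, lower glycolysis and Acod1 kept their numbers of rises at 1, 4 and 1. Lactate handling had 3 rises, upper glycolysis had 7 rises and 5 falls, the TCA cycle had 0 rises and 4 falls, and pyruvate oxidation had 0 rises and 2 falls, Pdha1 at -0.29 (edgeR adjusted p = 1.31e-04) and Pdhb at -0.21 (edgeR adjusted p = 0.00393).

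**Figure D1:**
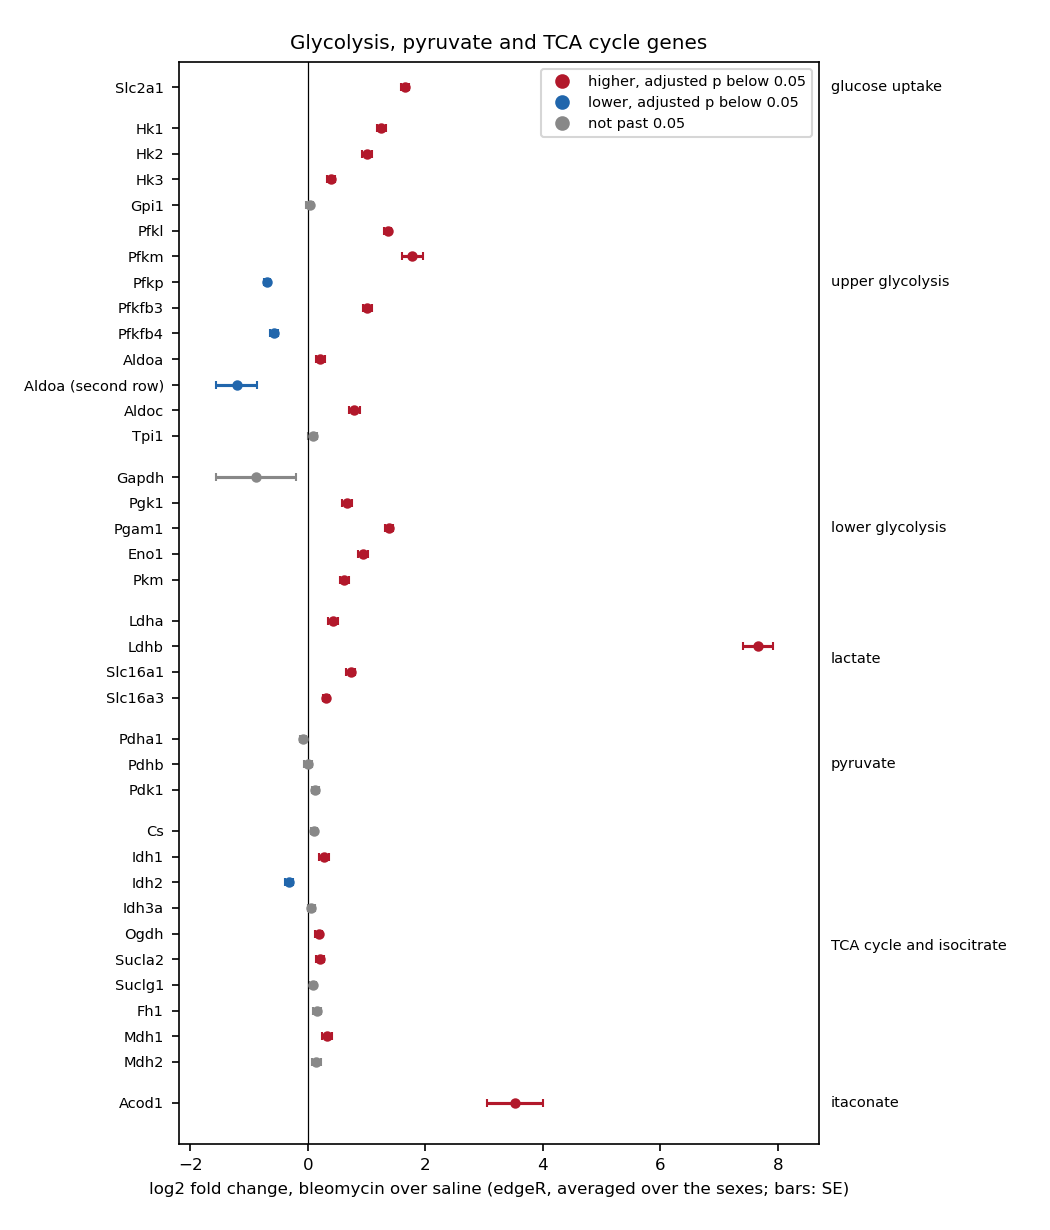
Log2 fold change of bleomycin over saline for the 37 entries, averaged over the sexes and grouped by step of the pathway; points are edgeR estimates, bars are standard errors, red and blue mark adjusted p below 0.05. Ldhb at 7.66 and Acod1 at 3.52 stand far to the right, Pfkl and Pfkp lie on opposite sides of 0, and the TCA cycle genes lie close to 0.

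Promoter windows of 300 bases around a RefSeq transcription start in GRCm38.p6, the larger part lying before the start, were available for 35 of the 36 genes (all but Idh3a), as 54 windows. They were searched on both strands for ACGTG and GCGTG, the core of the hypoxia response element, and the E-box CACGTG contains ACGTG on both strands. ACGTG stood in at least 1 window of 17 of the 22 genes that rose, 0 of the 3 that fell and 2 of the 10 not called, on 40, 3 and 11 windows. Either motif stood in a window of 21 of the 22 genes that rose, 3 of the 3 that fell and 7 of the 10 not called, against 65.7% of all genes tested that have a window. Of all 32851 promoter windows 19.6% held ACGTG, 32.4% GCGTG and 43.8% either. Counted by gene, ACGTG was found for 27.6% of all genes that rose, 28.9% of those that fell and 30.0% of those not called, so that over all genes the motif did not go with the direction of the change. The windows of 5 genes are shown to set strong rises with ACGTG (Slc2a1, Pgam1), the gene with most copies (Ldha), the largest rise (Ldhb, no ACGTG) and a fall (Pfkp, no ACGTG) beside each other. Capitals mark ACGTG or GCGTG and their reverse complements CACGT and CACGC, and where copies overlap the run is longer.
Slc2a1: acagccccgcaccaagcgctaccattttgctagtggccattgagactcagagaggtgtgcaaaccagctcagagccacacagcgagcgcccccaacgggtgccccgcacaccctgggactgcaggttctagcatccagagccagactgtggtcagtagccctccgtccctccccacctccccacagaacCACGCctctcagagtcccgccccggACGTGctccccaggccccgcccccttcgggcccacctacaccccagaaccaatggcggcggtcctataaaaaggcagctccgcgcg
Pgam1: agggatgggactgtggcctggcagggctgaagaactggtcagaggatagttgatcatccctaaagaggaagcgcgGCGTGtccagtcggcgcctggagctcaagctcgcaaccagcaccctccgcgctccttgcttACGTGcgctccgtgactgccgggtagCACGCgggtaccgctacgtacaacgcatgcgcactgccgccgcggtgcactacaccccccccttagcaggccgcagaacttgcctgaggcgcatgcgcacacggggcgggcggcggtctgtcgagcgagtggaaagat
Ldha: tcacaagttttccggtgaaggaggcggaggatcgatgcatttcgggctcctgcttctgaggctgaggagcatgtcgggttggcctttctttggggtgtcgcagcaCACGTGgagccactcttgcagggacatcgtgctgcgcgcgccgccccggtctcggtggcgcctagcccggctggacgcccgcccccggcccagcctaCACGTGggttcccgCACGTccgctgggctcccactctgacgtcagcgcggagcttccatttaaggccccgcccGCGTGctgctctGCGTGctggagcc
Ldhb: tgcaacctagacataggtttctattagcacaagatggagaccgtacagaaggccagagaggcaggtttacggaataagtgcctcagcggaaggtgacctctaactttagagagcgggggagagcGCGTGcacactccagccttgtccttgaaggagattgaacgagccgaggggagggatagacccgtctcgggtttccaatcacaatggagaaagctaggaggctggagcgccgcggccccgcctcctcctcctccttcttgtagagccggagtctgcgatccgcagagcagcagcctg
Pfkp: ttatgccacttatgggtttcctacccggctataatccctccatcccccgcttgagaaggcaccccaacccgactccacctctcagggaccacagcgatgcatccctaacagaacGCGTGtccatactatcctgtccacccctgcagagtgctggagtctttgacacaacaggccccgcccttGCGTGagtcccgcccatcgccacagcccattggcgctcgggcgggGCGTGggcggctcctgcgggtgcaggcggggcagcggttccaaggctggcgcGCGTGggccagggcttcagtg
These windows lie, in the order shown, at chr4:119108495-119108794 (plus strand), chr19:41911621-41911920 (plus strand), chr7:46845554-46845853 (plus strand), chr6:142507908-142508207 (minus strand) and chr13:6648722-6649021 (minus strand). The Ldha window holds 5 matches to ACGTG counted over both strands, of which 4 come from 2 copies of CACGTG, the Ldhb window 1 match to GCGTG, and the Pfkp window 4 matches to GCGTG. A match is a string of letters and not a measured binding site.

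Glucose enters through the transporter encoded by Slc2a1. Its promoter window, shown among the sequences, held 1 match to ACGTG. Slc2a1 was measured at 52.3, 63.6, 56.4 and 52.96 CPM in bleomycin males, against 15.7, 14.5, 13.8 and 18.02 CPM in saline males. Bleomycin females had 48.3, 62.3, 58.9 and 59.8 CPM, against 19.6, 20.7, 21.6 and 21.6 CPM in saline females. Every bleomycin library lay above every saline library. The change was a log2 fold change of 1.66 (SE 0.071, edgeR adjusted p = 7.00e-13), or 3.16-fold, and over the 23 alternative settings and leave-outs the log2 fold change ranged from 1.44 to 1.70.

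Hexokinases trap glucose in the cell as glucose 6-phosphate, and all 3 of their genes rose without overlap of the treatments. Hk1 levels were 46.5, 52.3, 55.7 and 51.2 CPM in males given bleomycin and 23.01, 22.8, 19.6 and 23.4 CPM in males given saline. Levels in females were 56.5, 61.1, 47.7 and 52.1 CPM after bleomycin and 22.3, 26.1, 20.7 and 19.3 CPM after saline. Hk1, the broadly expressed form, had a log2 fold change of 1.25 (SE 0.073, edgeR adjusted p = 4.51e-11). Hk2, the form that is inducible in many tissues, averaged 81.9 ± 8.3 CPM in bleomycin and 40.9 ± 5.3 CPM in saline libraries, with a log2 fold change of 1.01 (SE 0.079, edgeR adjusted p = 2.91e-09). Hk3, a form typical of myeloid cells, averaged 69.97 ± 7.2 CPM in bleomycin and 53.04 ± 5.5 CPM in saline libraries, with the smallest rise of the 3, a log2 fold change of 0.40 (SE 0.067, edgeR adjusted p = 4.59e-05). The next enzyme, the isomerase encoded by Gpi1, did not pass the test at 279.6 ± 29.4 CPM in bleomycin and 273 ± 11.1 CPM in saline libraries (log2 fold change of 0.03, SE 0.063, edgeR adjusted p = 0.656).

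Phosphofructokinase catalyses the committing step, and its subunit genes moved in opposite directions. In males Pfkl had 84.3, 108, 97.3 and 96.1 CPM with bleomycin, against 34.7, 42.4, 35.1 and 36.5 CPM with saline. In females it had 81.6, 104, 90.4 and 98.6 CPM with bleomycin, against 36.9, 38.2, 37.5 and 35.3 CPM with saline. Pfkl, the liver-type subunit, thus separated the treatments completely, with a log2 fold change of 1.36 (SE 0.065, edgeR adjusted p = 2.89e-12). Pfkm was measured at 4.23, 6.29, 5.41 and 4.61 CPM in bleomycin males, against 1.19, 2.12, 1.62 and 1.07 CPM in saline males. Bleomycin females had 5.95, 5.05, 3.55 and 5.53 CPM, against 0.944, 1.57, 1.52 and 1.82 CPM in saline females. The muscle-type subunit gene Pfkm was at a low level throughout and rose without overlap, with a log2 fold change of 1.78 (SE 0.18, edgeR adjusted p = 9.71e-08). Pfkp levels were 150.2, 149, 148 and 148 CPM in males given bleomycin and 254, 232, 245 and 273 CPM in males given saline. Levels in females were 149.6, 157, 175 and 170.4 CPM after bleomycin and 254, 267, 253 and 244 CPM after saline. Pfkp, the platelet-type subunit, was lower in all 8 bleomycin libraries than in any saline library, with a log2 fold change of -0.70 (SE 0.049, edgeR adjusted p = 6.21e-10), and the 4 bleomycin males lay within 147.6 to 150.2 CPM.

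The bifunctional enzymes that set the level of the main activator of phosphofructokinase also went opposite ways. In males Pfkfb3 had 109, 127, 113 and 117 CPM with bleomycin, against 59.00, 48.8, 56.7 and 57.9 CPM with saline. In females it had 123, 115, 91.1 and 109.6 CPM with bleomycin, against 68.4, 54.2, 47.3 and 55.7 CPM with saline. No bleomycin library overlapped with saline, and Pfkfb3 rose with a log2 fold change of 1.01 (SE 0.076, edgeR adjusted p = 1.57e-09). Pfkfb4 was measured at 235, 147, 198 and 182 CPM in bleomycin males, against 279, 308, 296 and 287 CPM in saline males. Bleomycin females had 223, 189.8, 217 and 221 CPM, against 298, 299, 315 and 319 CPM in saline females. Pfkfb4 fell without overlap, with a log2 fold change of -0.57 (SE 0.074, edgeR adjusted p = 2.15e-06), and C65 had its lowest value.

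**Figure D2:**
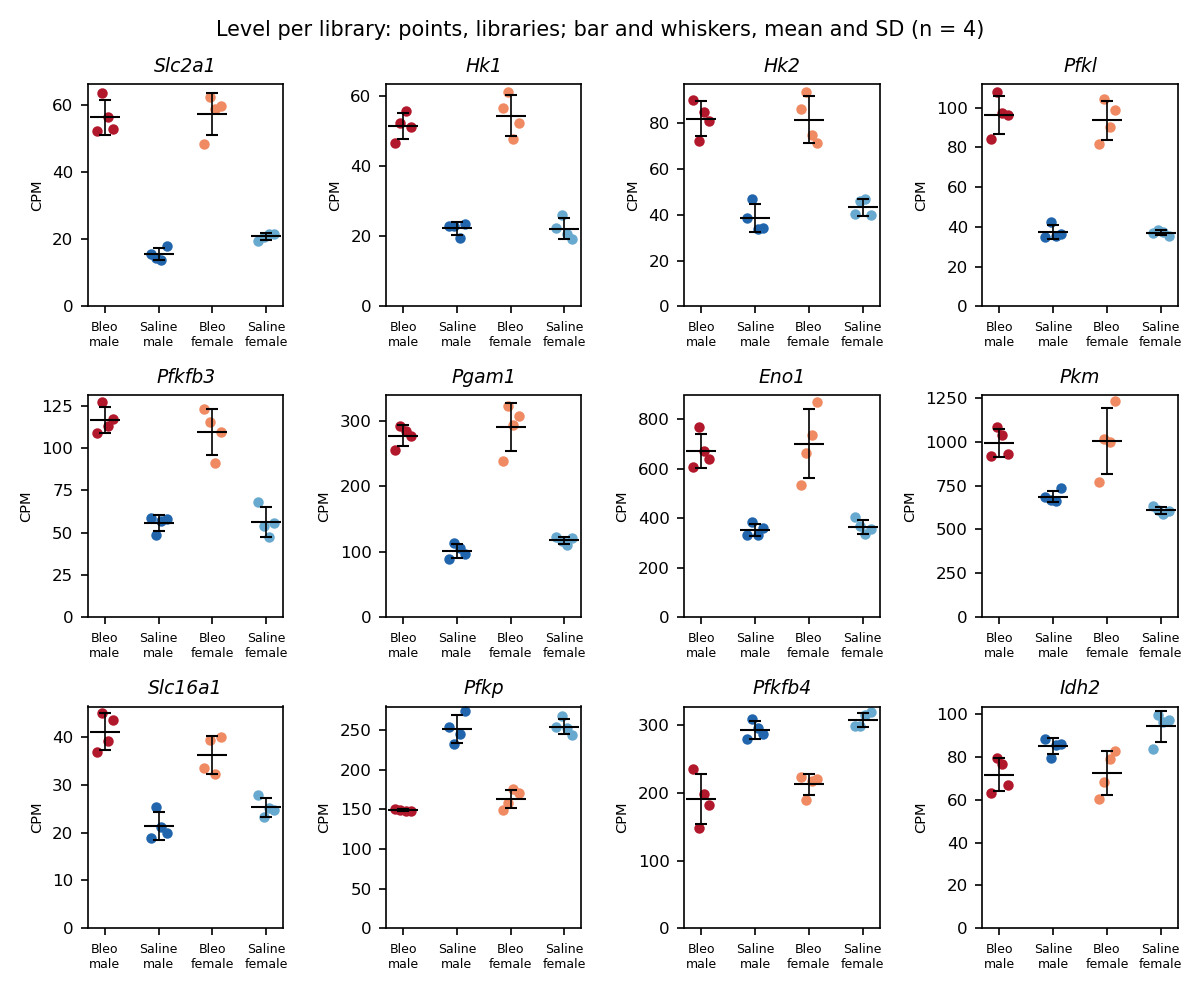
CPM per library of 12 genes of the pathway, with bleomycin left of saline within each sex; points are libraries, bars and whiskers are the mean and SD of 4 libraries, and each axis starts at 0. Slc2a1, Hk1, Hk2, Pfkl, Pfkfb3 and Pgam1 are higher in bleomycin without overlap, and Pfkp and Pfkfb4 are lower in bleomycin without overlap.

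Aldolase cleaves the fructose bisphosphate. Aldoa, the most abundant entry per length in both treatments at 385.6 ± 48.7 FPKM in bleomycin and 336.1 ± 17.6 FPKM in saline libraries (SD, n = 8 each), rose slightly with a log2 fold change of 0.21 (SE 0.077, edgeR adjusted p = 0.0226). That call was lost without C65 or without C69, and the direction turned with library totals alone at -0.0055. Aldoc, a second aldolase, averaged 122 ± 23.5 CPM in bleomycin and 70.1 ± 9.2 CPM in saline libraries, with a log2 fold change of 0.79 (SE 0.089, edgeR adjusted p = 3.82e-07). The second Aldoa entry levels were 0.218, 0.472, 0.347 and 0.269 CPM in males given bleomycin and 0.982, 0.801, 0.637 and 0.581 CPM in males given saline. Levels in females were 0.293, 0.337, 0.366 and 0.0614 CPM after bleomycin and 0.389, 0.305, 1.16 and 0.738 CPM after saline. The second Aldoa entry, a gene model of 799 bases next to Aldoa, overlapped between the treatments, with a log2 fold change of -1.21 (SE 0.35, edgeR adjusted p = 0.0059). Tpi1, the triose phosphate isomerase, did not pass at 133 ± 18.4 CPM in bleomycin and 126 ± 12.2 CPM in saline libraries (log2 fold change of 0.08, SE 0.075, edgeR adjusted p = 0.345).

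Of the 5 genes of lower glycolysis 4 rose. In males Pgam1 had 255, 292, 284 and 277 CPM with bleomycin, against 88.5, 114, 106 and 96.5 CPM with saline. In females it had 239, 322, 294 and 307 CPM with bleomycin, against 122, 116, 111 and 121 CPM with saline. Pgam1, the phosphoglycerate mutase, separated the treatments completely, with a log2 fold change of 1.38 (SE 0.068, edgeR adjusted p = 4.22e-12), or 2.60-fold. Eno1, an enolase, averaged 686 ± 103.9 CPM in bleomycin and 359.5 ± 25.8 CPM in saline libraries, with a log2 fold change of 0.93 (SE 0.085, edgeR adjusted p = 2.24e-08). Pkm was measured at 919, 1083, 1035 and 931 CPM in bleomycin males, against 682, 667, 664 and 737 CPM in saline males. Bleomycin females had 772, 1017, 995 and 1230.2 CPM, against 633, 609, 587 and 606 CPM in saline females. Pkm, which makes pyruvate and ATP, rose without overlap, with a log2 fold change of 0.62 (SE 0.076, edgeR adjusted p = 1.00e-06). Pgk1, the phosphoglycerate kinase, averaged 190.5 ± 30.1 CPM in bleomycin and 119.6 ± 10.6 CPM in saline libraries and overlapped only through C49 and C77, with a log2 fold change of 0.67 (SE 0.087, edgeR adjusted p = 2.32e-06).

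Gapdh, the glyceraldehyde phosphate dehydrogenase that is often used as a reference gene, did not behave like its neighbours. Gapdh levels were 177, 22.6, 168 and 4.92 CPM in males given bleomycin and 12.00, 163, 11.8 and 12.9 CPM in males given saline. Levels in females were 9.75, 5.93, 3.66 and 5.22 CPM after bleomycin and 79.5, 12.9, 45.4 and 20.4 CPM after saline. High and low libraries occurred in both treatments, and the averaged comparison gave a log2 fold change of -0.88 (SE 0.68, edgeR adjusted p = 0.269). The SD of its log2 level within a group was 2.44 in bleomycin males, 0.54 in bleomycin females, 1.84 in saline males and 1.15 in saline females, against medians of 0.13, 0.21, 0.11 and 0.078 for the pathway. In the reference transcripts 43 other genes, 39 of them pseudogenes, carry a stretch at least 300 bases long that is at least 95% identical to Gapdh, and these held 47.0% of the counts that Gapdh and they received together. The summed level of those copies was 29.3 to 64.1 CPM in bleomycin and 21.0 to 50.3 CPM in saline libraries, so that it varied far less than Gapdh itself. How reads were divided among such copies is not given in the sources used here, and the values of Gapdh are therefore uncertain. For Eno1 the copies held 2.85% and for Pdha1 3.57%, and for the other genes less than 1%.

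**Figure D3:**
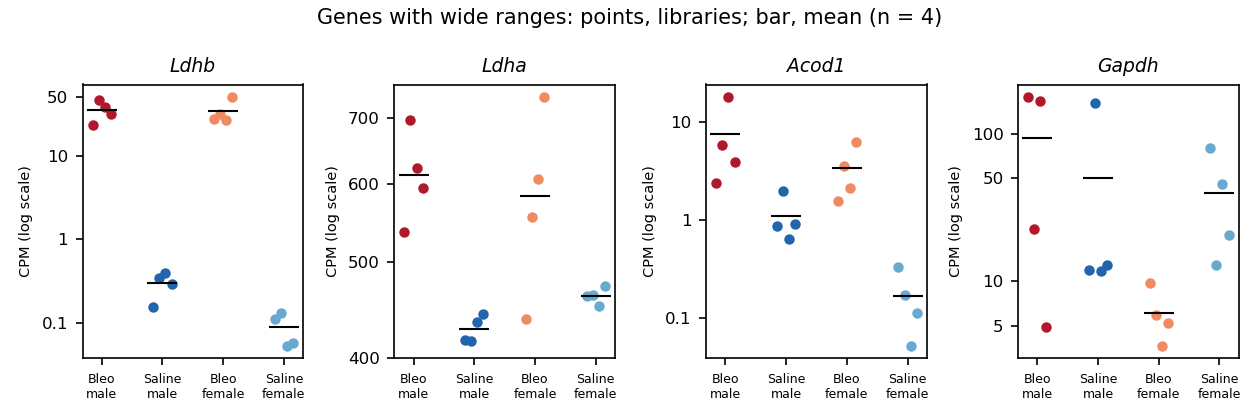
CPM per library on log axes for Ldhb, Ldha, Acod1 and Gapdh, with bleomycin left of saline within each sex; points are libraries and bars are means of 4 libraries. Ldhb separates the treatments by about 2 orders of magnitude, Acod1 is lowest in saline females, and Gapdh is scattered from 3.66 to 177 CPM in bleomycin and from 11.8 to 163 CPM in saline libraries.

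Lactate dehydrogenase interconverts pyruvate and lactate, and its heart-type subunit gene Ldhb had the largest change of the pathway and a promoter window with no ACGTG. In males Ldhb had 23.2, 46.4, 38.8 and 31.7 CPM with bleomycin, against 0.155, 0.343, 0.392 and 0.291 CPM with saline. In females it had 27.4, 31.3, 26.8 and 50.6 CPM with bleomycin, against 0.111, 0.131, 0.0526 and 0.0568 CPM with saline. The saline values rest on 1 to 8 counts per library, 30 counts in all, against 5546 counts in the bleomycin libraries. Ldhb rose with a log2 fold change of 7.66 (SE 0.25, edgeR adjusted p = 1.81e-14), and the 23 alternatives gave 7.44 to 7.80. Since Ldhb entered the test only through bleomycin libraries, it could only come out higher, and the call by itself is no result. The T cell marker sums, in the same order, were 183.9, 493.4, 365.2 and 434.8 CPM in bleomycin males and 405.3, 352.6, 153.6 and 174.6 CPM in bleomycin females. C65 was the highest and C33 the lowest male in both, and C68 was the lowest female in both, while C69 was the highest female in Ldhb and the second lowest in the T cell sum. B cell and NK cell sums had the same highest and lowest male and the same lowest female as the T cell sum. Epithelial sums had the same highest and lowest male, but C49 as the lowest female. Monocyte-derived macrophage sums were highest in C69 at 22790 CPM and lowest in C49 at 12850 CPM among bleomycin females, and highest in C66 and lowest in C33 among males. The part of any cell type in the rise was not tested. Ldha was measured at 536, 696, 622 and 594 CPM in bleomycin males, against 417, 416, 435 and 444 CPM in saline males. Bleomycin females had 438, 556, 606 and 735 CPM, against 463, 464, 452 and 473 CPM in saline females. Ldha, the muscle-type subunit, overlapped only through the female C49, and rose with a log2 fold change of 0.43 (SE 0.082, edgeR adjusted p = 2.02e-04).

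Both lactate transporter genes among the members rose without overlap. The related monocarboxylate transporter gene Slc16a7, which is not a member, fell with a log2 fold change of -1.23 (edgeR adjusted p = 8.05e-12). It averaged 20.6 CPM in bleomycin and 48.3 CPM in saline libraries. Of the 2 members, Slc16a1 averaged 38.7 ± 4.5 CPM in bleomycin and 23.3 ± 3.1 CPM in saline libraries, with a log2 fold change of 0.73 (SE 0.075, edgeR adjusted p = 1.14e-07). Slc16a3, which encodes the transporter associated with lactate export in glycolytic cells, averaged 67.9 ± 5.1 CPM in bleomycin and 54.8 ± 3.4 CPM in saline libraries, with a log2 fold change of 0.31 (SE 0.054, edgeR adjusted p = 7.99e-05), and was not called with library totals alone at 0.10.

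The 3 listed genes of pyruvate oxidation did not pass the averaged test with composition scaling, but Pdha1 and Pdhb were called lower with library totals alone. Pdha1 and Pdhb encode the subunits of the first enzyme of the pyruvate dehydrogenase complex. Pdha1 averaged 64.3 ± 4 CPM in bleomycin and 67.8 ± 5.1 CPM in saline libraries (log2 fold change of -0.07, SE 0.052, edgeR adjusted p = 0.22), and Pdhb averaged 79.1 ± 9.3 CPM in bleomycin and 78.9 ± 7.2 CPM in saline libraries (log2 fold change of 0.0054, SE 0.064, edgeR adjusted p = 0.948). Pdk1, a kinase that inhibits the complex, averaged 58.6 ± 5.8 CPM in bleomycin and 53.9 ± 6 CPM in saline libraries (log2 fold change of 0.13, SE 0.061, edgeR adjusted p = 0.0784). All 3 overlapped between the treatments. Outside the 36 genes, others of this step were called in both directions in the same averaged test. Mpc1 (0.89), Pdp2 (0.58) and Pdhx (0.32) rose, and Pdpr (-0.65), Mpc2 (-0.41), Pdp1 (-0.35) and Dlat (-0.20) fell, as log2 fold changes. Dld, Pdk2, Pdk3 and Pdk4 were not called.

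The 10 genes of the TCA cycle and of isocitrate dehydrogenation all overlapped between the treatments. With composition scaling 4 rose, at log2 fold changes from 0.18 to 0.33: Mdh1, a cytosolic malate dehydrogenase, Idh1, the cytosolic isocitrate dehydrogenase that makes NADPH, Sucla2, a subunit of succinyl-CoA synthetase, and Ogdh, a subunit of the oxoglutarate dehydrogenase complex. With library totals alone none of them passed, and Sucla2 and Ogdh turned to -0.0086 and -0.026. Idh2 levels were 63.1, 79.2, 76.8 and 67.1 CPM in males given bleomycin and 88.5, 79.6, 85.7 and 85.8 CPM in males given saline. Levels in females were 60.2, 68.03, 79.1 and 82.5 CPM after bleomycin and 83.5, 99.7, 96.1 and 97.2 CPM after saline. Idh2, the mitochondrial enzyme that makes NADPH, fell with a log2 fold change of -0.31 (SE 0.069, edgeR adjusted p = 7.17e-04) and overlapped only in that C69 lay above C71. Cs, Idh3a, Suclg1, Fh1 and Mdh2, which encode citrate synthase, a subunit of the NAD-linked isocitrate dehydrogenase, the other succinyl-CoA synthetase subunit, fumarase and mitochondrial malate dehydrogenase, were not called, at log2 fold changes of 0.10, 0.06, 0.08, 0.16 and 0.15. C49 was the bleomycin female with the lowest monocyte-derived and the lowest resident macrophage marker sum, and with the highest factor of the composition scaling. Without C49, 8 of these 10 genes rose. The additional ones were Cs, Suclg1, Fh1 and Mdh2. In that fit 10487 of the 15420 genes tested were called, and 53.3% of those were higher in bleomycin.

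Acod1, which diverts the cycle to itaconate, rose with the second largest change. In males Acod1 had 2.40, 5.87, 17.97 and 3.94 CPM with bleomycin, against 0.879, 2.003, 0.637 and 0.920 CPM with saline. In females it had 1.56, 3.58, 2.14 and 6.27 CPM with bleomycin, against 0.333, 0.174, 0.0526 and 0.114 CPM with saline. Within each sex the treatments did not overlap, but the saline male C71 lay above the bleomycin female C49. The change was a log2 fold change of 3.52 (SE 0.48, edgeR adjusted p = 4.10e-06), and the alternatives gave 3.06 to 3.77.

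**Figure D4:**
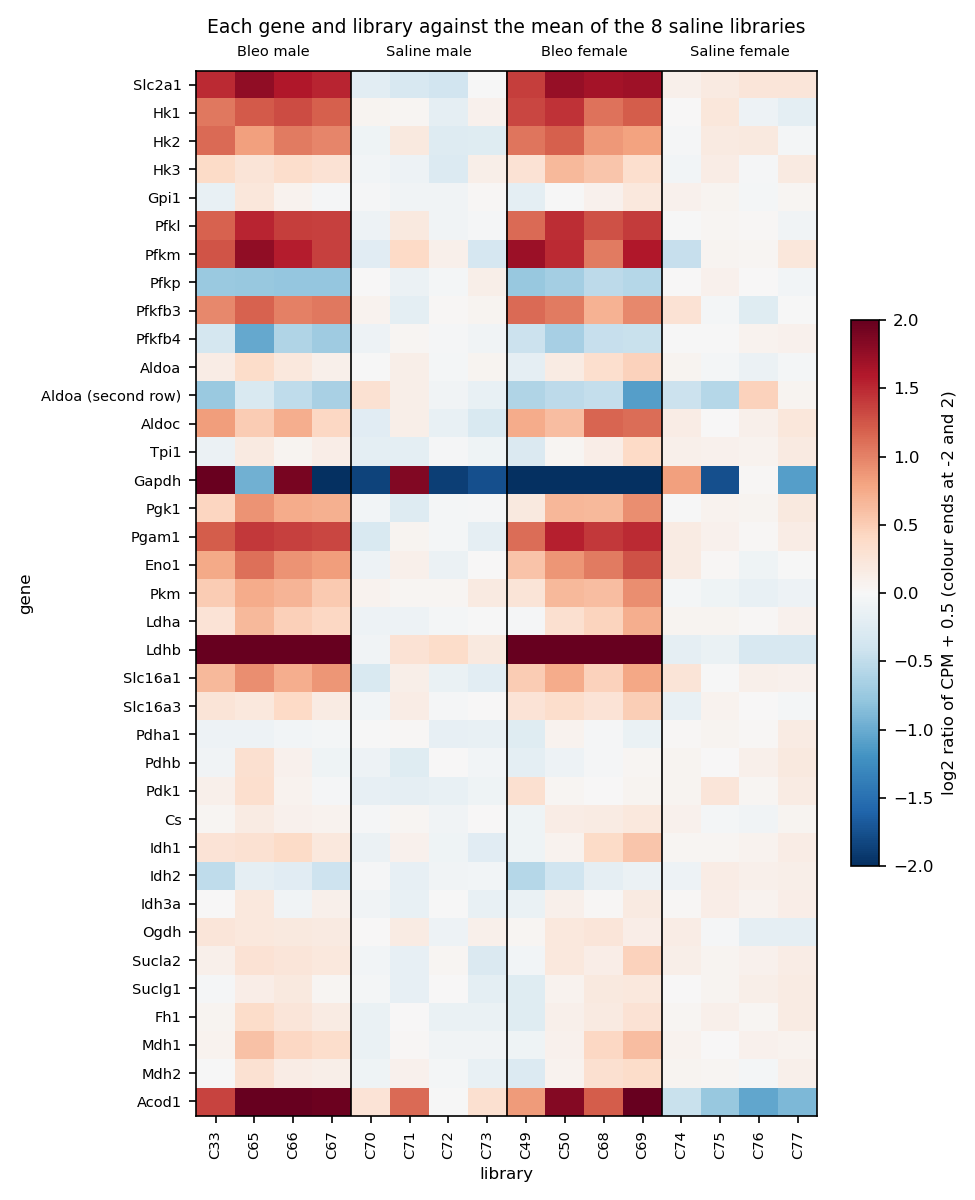
Log2 ratio of each gene in each library to the mean of the 8 saline libraries, computed from CPM + 0.5, with libraries in columns, bleomycin left of saline within each sex, and colours ending at -2 and 2. Rows of Slc2a1, Hk1, Pfkl, Pgam1, Ldhb and others are red in all bleomycin columns, Pfkp and Pfkfb4 are blue there, and the Gapdh row changes colour from library to library.

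The libraries of 1 group were not equal for the pathway. C49 was the lowest of the bleomycin females in 26 of the 37 entries and C69 the highest in 21. Among bleomycin males C33 was the lowest in 23 and C65 the highest in 24. The factors of the composition scaling, by which CPM divide, ran the other way. C49 had the highest factor of the bleomycin females, 1.027, and C69 the lowest, 0.8633. In bleomycin males C33 had the highest, 0.9464, and C65 the lowest, 0.8985. The monocyte-derived macrophage marker sums were 12850 CPM in C49, 22790 CPM in C69, 18940 CPM in C33 and 24750 CPM in C65. The bleomycin male C66 had the highest such sum, 28020 CPM, but was the highest male in only 5 entries. Other marker sums differed between these libraries too. For C49, C69, C33 and C65 the resident macrophage sums were 11840, 24690, 14130 and 15270 CPM, and the B cell sums 269.4, 118.4, 92.6 and 350.6 CPM. The part of the scaling or of any cell type in these differences was not tested.

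Isoenzymes were compared per length as shares of the summed FPKM (fragment counts scaled to gene length and between libraries) of their group, with no test. Shares within a library do not depend on the scaling between libraries, but the summed levels do. Summed levels with library totals alone were not computed. Among phosphofructokinase genes Pfkl held 51.9% ± 2.6 in bleomycin and 22.4% ± 1.6 in saline libraries (SD, n = 8 each). Pfkp held 42.6% ± 2.9 in bleomycin and 75.8% ± 2.0 in saline libraries, and Pfkm 5.55% ± 0.98 in bleomycin and 1.79% ± 0.51 in saline libraries. Per length the leading subunit gene was thus Pfkl under bleomycin and Pfkp under saline, with ranges that did not overlap, while the summed level was 27.0 ± 1.6 FPKM in bleomycin and 24.8 ± 0.83 FPKM in saline libraries. This order rests on the division by gene length: in CPM, which carry no length, Pfkp at 147.6 to 175.0 was above Pfkl at 81.6 to 108 in bleomycin libraries too. The Pfkl share by counts was higher in bleomycin by 24.3 percentage points. Among hexokinases Hk3 held 48.8% ± 2.6 in bleomycin and 60.4% ± 3.1 in saline libraries, and Hk1 held 15.96% ± 1.3 in bleomycin and 10.9% ± 0.98 in saline libraries, both without overlap. Hk2 held 35.2% ± 2.2 in bleomycin and 28.7% ± 2.9 in saline libraries, with overlap. The summed hexokinase level was 38.4 ± 3.2 FPKM in bleomycin and 23.7 ± 2.0 FPKM in saline libraries. Ldhb held 10.7% ± 1.6 of the lactate dehydrogenase FPKM in bleomycin and 0.0924% ± 0.066 in saline libraries. Pfkfb3 held 26.9% ± 4.5 against Pfkfb4 in bleomycin and 10.8% ± 1.4 in saline libraries. The ranges of Aldoc, Slc16a1 and Idh3a in their groups overlapped. Idh1 held 80.3% ± 1.3 in bleomycin and 74.3% ± 1.7 in saline libraries, and Idh2 14.5% ± 0.88 in bleomycin and 20.1% ± 1.5 in saline libraries, both without overlap.

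**Figure D5:**
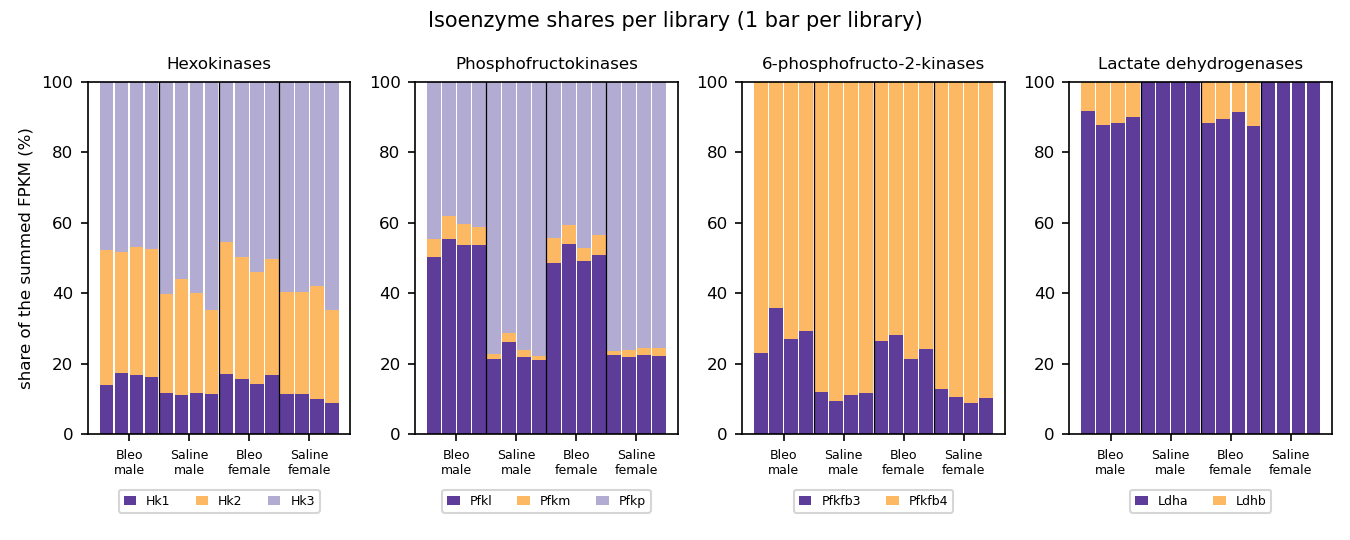
Share of each gene in the summed FPKM of hexokinases, phosphofructokinases, bifunctional enzymes and lactate dehydrogenases, 1 bar per library, with bleomycin left of saline within each sex. The phosphofructokinase bars show Pfkl near 52% in bleomycin and near 22% in saline libraries, and Ldhb is visible only in bleomycin libraries.

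Males and females were compared with the same model. In males bleomycin raised 22 entries and lowered 4, against 31.5% higher and 24.9% lower of all genes tested. In females it raised 17 and lowered 4, against 26.7% and 17.2%. Rises were shared by 17 entries and falls by 3, and 0 were called in opposite directions. Ldhb, among the 17, could only come out higher. The rise of Ldha in females was lost when any 1 of C50, C68, C69, C74, C75 or C76 was left out, in a fit to the female libraries alone and with library totals alone, at 0.13 to 0.34. The 5 rises called in males alone were Pdk1, Idh1, Sucla2, Fh1 and Mdh1. The fall called in males alone was the second Aldoa entry, and the fall called in females alone was Gapdh at -2.67 (SE 1.0, edgeR adjusted p = 0.0448). That call was lost in limma voom and without any of C50, C68, C69, C74 or C76. In males Gapdh had 0.91 (SE 0.91, edgeR adjusted p = 0.406), and without C71 it was called higher at 2.93.

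A call in 1 sex does not show a difference between the sexes, and the interaction was called for 0 of the 37 entries, against 0.00655% of all genes tested. By an unadjusted p below 0.05 it reached 6 entries in edgeR and 7 in DESeq2, which also called 0. The 6 were Slc2a1, Slc16a1, Gapdh, Pdhb, Pdk1 and Fh1. The share of all genes at that unadjusted level is not given here, so that these numbers cannot be read as an excess. For Slc2a1 the log2 fold change was 1.86 in males and 1.46 in females, with an interaction of 0.40 (SE 0.14, edgeR adjusted p = 0.569). For Slc16a1 it was 0.95 in males and 0.52 in females, with an interaction of 0.42 (SE 0.15, edgeR adjusted p = 0.569). The TCA cycle had 4 rises in males and 0 in females, but 5 in females without C49.

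Under bleomycin, males and females differed in 0 entries, against 0.059% of all genes tested, with 3 entries at an unadjusted p below 0.05 in edgeR and 3 in DESeq2, which also called 0. Under saline they differed in 0 entries, against 0.269% of all genes tested, with 9 entries at an unadjusted p below 0.05 in edgeR. The percentages are for adjusted p, and no share of all genes at the unadjusted level is given, so that the 3 and the 9 cannot be read as an excess. Slc2a1 was the closest, with a male over female log2 fold change of -0.43 (SE 0.10, edgeR adjusted p = 0.0979) and no overlap of the 4 saline males with the 4 saline females. Acod1 had 2.67 (SE 0.83, edgeR adjusted p = 0.272) without overlap, on 97 counts in all 8 saline libraries. DESeq2 called both genes, and a fit to the saline libraries alone called Slc2a1, Tpi1, Pdk1 and Acod1.

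The other genes of these pathways were called in both directions. Of 60 further genes of glycolysis, pyruvate metabolism and the TCA cycle 51 were tested, of which 21 rose, 14 fell and 16 were not called in the averaged comparison, with a median log2 fold change of -0.0027. These shares lie close to the 34.7% higher and 28.8% lower of all genes tested, whose median was 0.01. The rises with the smallest p were Eno2 at 2.84, an enolase typical of neurons, Sdhb at 0.75, a subunit of succinate dehydrogenase, Pgm2 at 0.70, a phosphoglucomutase, and the glucose transporter gene Slc2a3 at 2.32. The falls with the smallest p were Gpd1 at -2.38, the cytosolic glycerol phosphate dehydrogenase, the monocarboxylate transporter gene Slc16a7 at -1.23, the malic enzyme gene Me2 at -0.42 and Tigar at -0.49, which encodes a phosphatase that lowers glycolytic flux.

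Of 21 tested regulators 8 rose and 6 fell, shares close to the 34.7% higher and 28.8% lower of all genes tested. Hif1a, which encodes the oxygen-regulated factor that drives glycolytic genes, averaged 208.7 ± 12.1 CPM in bleomycin and 91.3 ± 8.7 CPM in saline libraries (SD, n = 8 each), with a log2 fold change of 1.19. The other rises with the smallest p were Epas1 at 2.7, the related factor, Vhl at 0.94, part of the ligase that degrades both factors, and Egln3 at 3.97, a prolyl hydroxylase that marks them. The falls with the smallest p were Esrra at -0.63, a nuclear receptor of mitochondrial genes, Arrdc4 at -0.45 and Txnip at -0.46, which both restrain glucose uptake, and Myc at -0.94, a factor that drives glycolytic and growth genes. Of 14 tested targets of hypoxia-inducible factors outside the pathway 7 rose and 0 fell, against 34.7% higher and 28.8% lower of all genes tested. The rises were led by Ddit4 at 4.61, Ndrg1 at 2.37, Egln3 again and Vegfa at 1.93. Egln3 and P4ha2, another of the 7, averaged 0.14 and 0.060 CPM in saline libraries, below the filter's scaled minimum of 0.51 CPM. Both entered the test only through bleomycin libraries and could only come out higher, Egln3 in both lists. Car9, Bnip3, Bnip3l and Kdm3a, widely used targets of the same factors, were among the 7 not called. The pentose phosphate pathway branches off at glucose 6-phosphate and makes NADPH. Of 8 genes listed under it 6 rose and 1 fell, beside the same 34.7% and 28.8% of all genes tested. Prps1, among the 6, encodes an enzyme that uses a product of the pathway. The rises with the smallest p were Pgd at 0.60, Rpe at 0.36, Pgls at 0.38 and Prps1 at 0.34, and Rpia fell by 0.58 on the log2 scale.

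Some genes share ground with a neighbour, and strand use in counting is not stated. Hk1 lies across from Hk1os over 23112 bases, Pfkfb3 across from Gm10851 over 9131 bases, and Fh1 across from Kmo over 5255 bases. Reads from such pairs cannot be told apart without strand.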

How the data were processed

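RNA was measured in 16 libraries. The submitters' processing notes list HISAT2 2.0.5, fastp 0.12.2, DESeq2 and featureCounts 1.5.0-p3 as tools and the builds mm9 and mm10, with no role for either build; of the 37 gene entries, 36 have the coordinates of GRCm38 in GENCODE M21. The deposited counts are raw counts per Ensembl gene. The FPKM were deposited by the authors as values per length, and they did not follow library totals alone. Gpi1 averaged 42.7 FPKM in bleomycin and 42.2 FPKM in saline libraries. Its log2 fold change was 0.03 with composition scaling and -0.18 with library totals alone. FPKM served for shares and summed levels of isoenzymes and for the level of Aldoa per length.

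The counts were fitted with 1 coefficient per group over all 16 libraries in edgeR 4.0.16 under R 4.3.3 (TMM scaling, filterByExpr with a minimum count of 10, quasi-likelihood F test, Benjamini-Hochberg over 15257 genes, called below 0.05). The model was tested on simulated counts. CPM in the text divide by library total times TMM factor (0.8633 to 1.027 in bleomycin, 1.053 to 1.098 in saline). Alternatives used DESeq2 1.42.0, limma 3.58.1 (voom), other scalings and filters, and leaving out libraries. Near-identical transcripts were searched with BLAST 2.17.0. The SE is the log2 fold change divided by the root of F.

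The members and the lists were chosen with earlier results of these data known. Library values are given for the 8 largest rises and 4 largest falls called in the averaged comparison and for Slc2a1, Gapdh, Ldha, Ldhb, Pkm and Acod1. Of each pathway list up to 4 rises and 4 falls with the smallest p are named. Some further genes of the lists are named where related genes are described.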

Additional observations from a re-analysis of the deposited data

Results flagged for a closer look

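Each gene was examined in each group of 4 for a library whose gap to its nearest neighbour exceeded Dixon's critical value, which made 148 sets. By chance about 1 in 20, or 7.4 sets, would stand out, and 6 did. In bleomycin females, Pdk1 stood high in C49 at 67.4 CPM. In saline males, Gapdh in C71 at 163 CPM and Fh1 in C71 at 48.3 CPM stood high, while Pgk1 in C71 at 99.9 CPM and Hk1 in C72 at 19.6 CPM stood low. In saline females, Pdha1 stood high in C77 at 76.2 CPM. C71 accounted for 3 of the 6. Causes were not tested.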

How the results depend on the processing

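No paired analysis was possible because replicate codes are not shared between groups. Of the log2 fold changes under the alternatives, 1098 kept direction and side of the threshold, 19 lost a call, 12 gained one and 9 turned. The 9 that turned did so with library totals alone, which shifts all genes: Aldoa -0.0055, Cs -0.11, Gpi1 -0.18, Idh3a -0.15, Ogdh -0.026, Pdhb -0.21, Sucla2 -0.0086, Suclg1 -0.13 and Tpi1 -0.14. Leaving out 1 library at a time gave 25 to 30 entries called in the averaged comparison, 24 to 27 in males and 19 to 27 in females. It gave 0 to 1 for males against females under saline, the 1 without C49, and 0 to 0 under bleomycin and for the interaction. Without C49 and C65 together 25 rose and 4 fell in the averaged comparison, and 1 entry, Slc2a1, was called between the sexes under saline. Under saline DESeq2 called 2, no filter 1 (Acod1) and a fit to the saline libraries alone 4. Without a filter Gapdh was the 1 entry called between the sexes under bleomycin and the 1 called in the interaction. Shares of isoenzymes by counts without length moved for 6 genes, with no change of direction. Saline levels of Ldhb, at 1 to 8 counts per library, are limited by depth. The causes of these differences were not tested.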
